A study of Orbicella faveolata with 48 samples.

Results

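A small group of transcripts of the mountainous star coral Orbicella faveolata was either clearly present or close to absent in every RNA library of the study. A transcript was kept where its CPM (the usual depth-scaled read count, here scaled to the total coral count of each library) reached 3 or more in some libraries and 0.2 or less in all others, with at least 2 libraries of each kind. Of 87440 coral transcripts in the deposited table, 102 met this rule (0.117%). A library at 3 CPM or more is called on here and a library at 0.2 CPM or less is called off. The on and off states were chosen by measured values, so they are described here without a test.

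Orbicella faveolata is a reef-building coral whose cells house photosynthetic algae. A colony grows by budding of genetically identical polyps, so that fragments cut from 1 colony carry the same genome. Transcripts can be on or off by individual where a gene or part of it is missing from a genome, where an allele differs so much in sequence that an assembly holds it as a separate transcript, or where a gene is silent in some individuals. The features here are transcripts assembled from reads without a genome. In an identifier such as DN222740_c0_g2_i1, as the Trinity assembler writes them, DN and c number a cluster of reads and a component within it, g an assembled gene and i an isoform of it. The identifiers carry no product names, so the role of each transcript, its organism of origin and the tissue's own marker genes could not be looked up.

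The study exposed coral fragments from reefs of the Florida Keys, inshore or offshore, to heat. Control fragments stood at 30 °C, and heated fragments had been warmed gradually to 33 °C where sampled at 5 days and to 32 °C where sampled at 31 days. Each of the 4 inshore groups (control or heated, 5 or 31 days) held 9 libraries and each of the 4 offshore groups held 3, giving 48 libraries of whole coral tissue. Every library has a tag of its fragment, such as A4, of which there were 18, and 1 of 7 genotype labels. The labels were In1, In2, In3 and In4 inshore and O1, O2 and O5 offshore.

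The libraries held 4726663 to 6686881 coral counts each, so that 1 count was worth 0.150 to 0.212 CPM. Off therefore meant at most 1 count in practice: the highest count of any of the 102 transcripts in an off library was 1.13, since the authors' counts are estimates that need not be whole, and the lowest in an on library was 15. In 2 libraries a single count already exceeded the limit for off. A count of 0 does not show that a transcript was missing, only that it was not detected at this depth. Libraries hold many cells, and fewer cells of a type and less RNA per cell cannot be told apart. At 31 days 3 libraries stood apart, the heated fragments of B2 and B3 and the control of C4: they shared a group of transcripts at 5 CPM or more in each and at least 4 times any other library. None of the 102 transcripts was in that group.

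In 98 of the 102 transcripts the state was the same in all libraries with the same tag, heated or control, on either day. Many tags, among them B2, B3, B4, C1 and C4, were sampled on 1 day only. In these the state could not be followed between days. The plot of states shows them as unbroken blocks. The 18 tags fell into 10 sets with identical states across all 98 transcripts. Tags A2, A3, A4, A5 and A6 formed 1 set with 12 libraries, and 40 transcripts were on in it. Tags D3, D4, D5 and D6 formed another with 12 libraries and 34 transcripts on. Tags BLY5 and BLY6 shared their states over 6 libraries, with 39 on. The other 7 sets were single tags, with 47 transcripts on in B2, 47 in B4, 45 in C5, 41 each in C1, C2 and C4, and 35 in B3. Any 2 sets differed in 21 to 44 of the 98 transcripts.

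**Figure D1:**
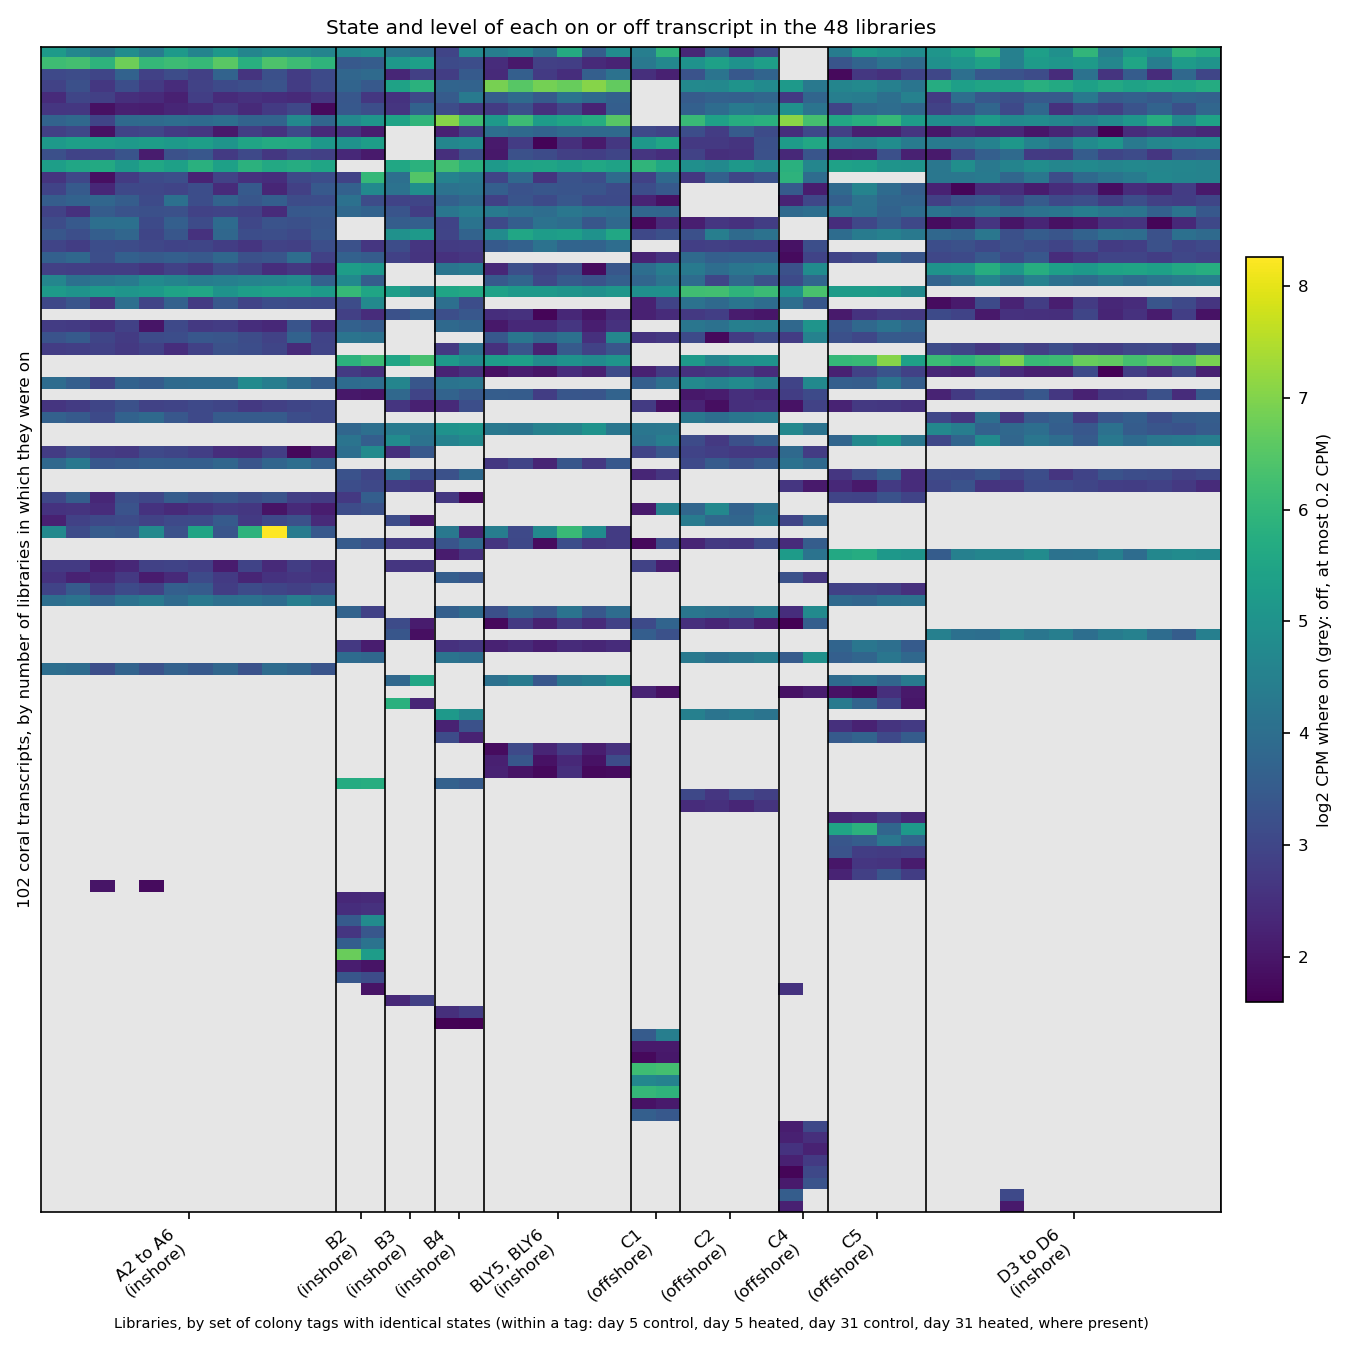
Each line is 1 of the 102 transcripts, ordered by the number of libraries in which it was on, and each column is 1 of the 48 libraries, grouped by set of tags. Colour gives the log2 CPM where on and grey marks off. Nearly all lines change between sets and not within them, as in the 8 transcripts that were on in tag B2 alone and the 8 in tag C1 alone.

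The genotype labels did not follow these states. In 34 of the 98 transcripts the state differed within a label on the same day, always between tags B2 and B3, which both carried In2 at 31 days. Over both days a label was split in 86 of the 98. Fragments labelled O1 came from tag C1 at 5 days but from C2 at 31 days, and O2 stood for C2 and then C4, In2 for BLY5 and BLY6 and then B2 and B3, and In4 for B4 and then BLY5. Labels In1, In3 and O5 kept their sets on both days. Only 12 transcripts had 1 state throughout every label.

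Transcripts outside the 102 gave a readout that the choice had not used. Over these 87338 transcripts, the number on in both arms of one tag sample (a tag on a given day) and off in both arms of another was counted for every pair of tag samples. Pairs from the same set and day differed in 0 to 88 transcripts (median 3, 11 pairs), and pairs of the same set on different days in 1 to 150 (median 23, 19 pairs). Pairs from different sets differed in 234 to 535 (median 374, 223 pairs). The ranges of the same set and of different sets did not overlap. The pairs share tag samples and are not independent, so no test is given.

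Within the sets, the 4 highest counts all involved tag A3 of 5 days. It differed from A4 of the same day in 88 transcripts, 87 of them on in A3 and off in A4, and from A5 of 31 days in 150. The labels were split by this readout as well. Tag C2 differed from itself between the days in 2 transcripts, although it carried O2 and then O1, while C1 of 5 days and C2 of 31 days, both labelled O1, differed in 420. Tags B2 and B3, both In2 at 31 days, differed in 303, and B4 of 5 days and BLY5 of 31 days, both In4, in 290. The 8 pairs with 1 label but different sets ranged from 286 to 420 (median 308.5), inside the range of different sets in general.

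**Figure D2:**
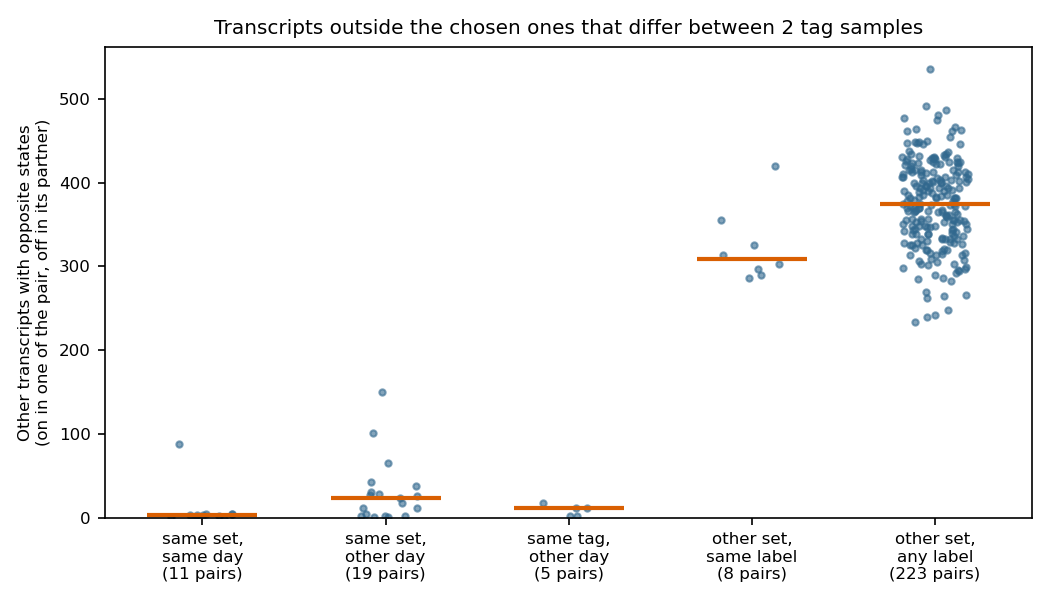
The vertical axis counts transcripts outside the 102 that were on in both arms of one tag sample and off in both arms of its partner, with 1 point per pair and the median as a line. The same-tag pairs are part of the same-set pairs of other days, and the same-label pairs are part of the different-set pairs. Same-set pairs stayed at 150 or below and different-set pairs at 234 or above.

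The 102 transcripts showed 61 different patterns over the libraries, 46 of them held by a single transcript. Of the 98 that followed the tags, 37 were on in 1 set alone, 17 were off in 1 set alone and 44 were on in 2 to 8 of the 10 sets. Habitat did not divide them cleanly. There were 57 transcripts on in both habitats, 18 on inshore alone and 23 on offshore alone, and none was on in all tags of one habitat and off in all of the other. Offshore had 4 sets, each a single tag, against 6 inshore, so a transcript of 1 tag counted towards either habitat by where that tag came from.

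The most frequent patterns belonged to single tags. The rule asked less of these: 3 CPM in the 2 libraries of B2, C1 or C4, against all 12 of the A or the D tags. In the A tags alone 1 transcript was on, and in the D tags alone 0. B3 and B4, also with 2 libraries each, had 1 and 2. These counts therefore do not compare the tags evenly. Tag B2 alone was on in 8 transcripts. Among these DN199434_c1_g2_i1 stood at 106.1 CPM in the B2 control fragment and 38.6 CPM in the heated one, and DN214186_c3_g3_i2 at 11.1 and 27.8 CPM. The heated B2 fragment is 1 of the 3 libraries that stood apart, and both transcripts were on without it too.

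Tag C1 alone was also on in 8 transcripts. DN207345_c1_g1_i1, the highest of all 102 by its mean where on, stood at 72.5 CPM in the C1 control and 76.9 CPM in the heated C1 fragment, and had 0 counts in all 46 other libraries. DN222740_c0_g4_i1 stood at 65.2 and 61.4 CPM in the same fragments. In both transcripts the control and heated values lay close together.

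Tag C4 alone was on in 6 transcripts and tag C5 alone in 6. In C4, DN206544_c3_g3_i1 stood at 4.20 CPM in the control and 9.81 CPM in the heated fragment, and DN195625_c1_g2_i1 at 4.39 and 8.23 CPM. The C4 control is another of the libraries that stood apart, and it had the lower value in both. In C5, sampled on both days, DN204560_c2_g1_i1 was at 45.0 CPM (control) and 58.4 CPM (heated) at 5 days and at 13.6 and 36.0 CPM at 31 days. DN201845_c2_g2_i2 was at 10.4 and 11.8 CPM at 5 days and at 18.7 and 13.1 CPM at 31 days. The states thus held over both days in C5 while the levels moved.

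The opposite case, off in a single tag, was held by 4 transcripts for C1 and by 3 each for C4, B3 and C2. In all, 29 transcripts were on in exactly 2 libraries and 11 were off in exactly 2, the fewest the rule allowed. More were on in few libraries than in many, with 67 on in 24 or fewer of the 48.

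The 4 transcripts that did not follow the tags were each on in 2 libraries. DN195709_c3_g2_i1 and DN170557_c0_g1_i1 were on in the control fragments of C4 and D4 at 31 days, at means of 10.1 and 4.39 CPM. DN213929_c3_g1_i1 was on in the C4 control and the heated B2 fragment of 31 days at a mean of 4.89 CPM. DN161209_c0_g2_i1 was on in the A3 and A4 controls of 5 days at 3.69 CPM. The first 3 thus rested on a library that stood apart. These 4 were looked at for breaking the pattern, after their values were seen.

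Levels where on were modest. The mean over the on libraries ran from 3.08 to 74.7 CPM with a median of 9.45 over the 102 transcripts. In 30 transcripts every off library had 0 counts. Nearest to the limits were DN217212_c0_g1_i2 with a lowest on value of 3.02 CPM and DN202912_c5_g2_i2 with 3.05 CPM, and DN210893_c1_g1_i2 and DN181831_c0_g1_i1, whose highest off value lay just under 0.2 CPM. Just outside lay DN221935_c2_g3_i1 and DN120284_c0_g1_i2, with a library at 2.99 CPM each, and DN201845_c2_g1_i8 and DN223615_c2_g3_i1, with a library at 0.211 CPM each.

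Among libraries where a transcript was on, its level still differed from tag to tag. For 31 transcripts on in 30 or more libraries, the share of the spread in log2 CPM that lay between sets of tags (adjusted R2) had a median of 63.7%, from -3.7% to 97.1%. Over the 12582 transcripts at 3 CPM or more in all 48 libraries the median was 24.7% (quartiles 12.2% and 39.3%), and 25 of the 31 reached the upper quartile. The 31 were chosen by tag-dependent values and the sets were built from them, so this is a description.

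The highest share, 97.1%, was that of DN223982_c1_g1_i6, named here after the values were seen. It was off in C1. Its mean was 7.90 CPM ± 1.38 (SD, n = 12 libraries) in the A tags, 47.5 ± 4.61 (n = 12) in the D tags and 111 ± 14.6 (n = 6) in BLY5 and BLY6. These ranges did not overlap: the highest A library had 9.83 CPM, the D libraries 41.1 to 56.1 and the BLY libraries 92.4 to 133. At the other end, DN222189_c1_g6_i1 had a share of -3.7%, meaning that its on libraries spread no less within sets than between them.

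Whether the level changes with heat was tested in all transcripts with edgeR's quasi-likelihood test, within each habitat and day, with genotype labels as terms and Benjamini-Hochberg adjustment over all transcripts tested. A transcript is called where its adjusted p lies under 0.05. The replicates are fragments, some of which may share a colony, so the p-values speak of the spread from fragment to fragment. Inshore at 5 days, A3, A4 and A6 shared a set, as did BLY5 and BLY6, and D3, D5 and D6. Tallies of inshore tags below therefore cover fewer sets than tags. The rule itself limits what can be seen: a transcript with a heated fragment between 0.2 and 3 CPM could not be among the 102. A fall to 0.2 CPM or less under heat counted as a change of state.

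Inshore at 5 days, 65 of the 102 were on in both arms, 62 of these passed the filter on low counts, and 5 were called (8.06%), 4 higher and 1 lower under heat. Over all 34540 transcripts tested, 10.1% were called, so this share was near the background. The median log2 change was 0.09 over the 62 and 0.02 over all transcripts tested. The 4 higher and the 1 lower are described next, and 2 of them, DN220693_c0_g1_i1 and DN199687_c0_g1_i1, lay outside the rule for naming and were added after their values were seen.

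DN195739_c0_g1_i1 fell under heat. It was on in 8 inshore tags (the A tags, B4, BLY5 and BLY6) and off offshore and in B2, B3 and the D tags. In the 6 inshore control libraries of 5 days in which it was on, it lay between 11.3 and 28.7 CPM with a median of 21.0, and in their 6 heated partners between 4.83 and 10.8 with a median of 8.92. The groups did not overlap, and the heated fragment was lower in 6 of 6 tags. The log2 change was -1.40 (SE 0.22, edgeR adjusted p = 0.000294).

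At 31 days the same transcript went both ways. The control and heated values were 26.5 and 8.65 CPM in A2, 44.7 and 10.2 in A4, 59.4 and 306 in A5, and 26.4 and 68.6 in BLY5. It was lower in 2 tags and higher in 2, and the value of the heated A5 fragment was the highest of any of the 102 transcripts in any library. The fitted log2 change was 1.26 (SE 0.98, edgeR adjusted p = 0.52). The difference between the days was not tested.

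DN222466_c0_g1_i4, off in C4 alone, was higher under heat in both habitats at 5 days. Inshore controls lay between 7.83 and 33.5 CPM (median 21.4, n = 9) and heated ones between 24.1 and 63.2 (median 29.3, n = 9). The groups overlapped, and 8 of 9 tags were higher when heated (log2 change 0.74, SE 0.14, edgeR adjusted p = 0.00167). The offshore controls C1, C2 and C5 had 21.7, 4.94 and 21.1 CPM and their heated partners 60.5, 12.6 and 37.8, higher in 3 of 3 (log2 change 1.21, SE 0.26, edgeR adjusted p = 0.0152). This was the only call offshore, of 56 tested (1.79%), against 2.56% of all transcripts. It was lost without a C1 or a C2 library, with edgeR adjusted p between 0.0930 and 0.140. At 31 days the log2 change was 0.47 (SE 0.20) inshore and 0.23 (SE 0.44) offshore, neither called.

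DN200824_c1_g6_i1, with the same pattern of states, lay between 5.25 and 12.2 CPM (median 6.96, n = 9) in inshore controls and between 8.60 and 17.4 (median 12.9, n = 9) in heated fragments of 5 days. It was higher in 9 of 9 tags, with a log2 change of 0.82 (SE 0.19, edgeR adjusted p = 0.00641), and the groups overlapped only through the BLY6 control. Offshore it was higher in 2 of 3 tags and was not called (log2 change 0.53, SE 0.34).

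DN220693_c0_g1_i1, off in B3 alone, was between 4.04 and 7.81 CPM in inshore controls and between 7.25 and 11.5 in heated fragments (n = 9 each, higher in 8 of 9 tags, log2 change 0.60, SE 0.15, edgeR adjusted p = 0.0117). The groups overlapped slightly. Its offshore values were not called, with a log2 change of -0.18 (SE 0.27), and the difference between habitats was not tested. DN199687_c0_g1_i1, off in B2 and C4, was between 7.83 and 31.9 CPM in controls and between 10.5 and 47.4 when heated (n = 9 each, higher in 8 of 9 tags), with wide overlap. Its call (log2 change 0.41, SE 0.13, edgeR adjusted p = 0.0485) was lost with the tag as a block (edgeR adjusted p = 0.0553) and in 11 of 18 alternatives. Without the 6 libraries of label In3, DN195739_c0_g1_i1 was the only 1 of the 5 still called. It was off in all 6, so leaving them out removed none of its on libraries. The others lost tags in which they were on, so this setting does not compare the 5 evenly.

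**Figure D3:**
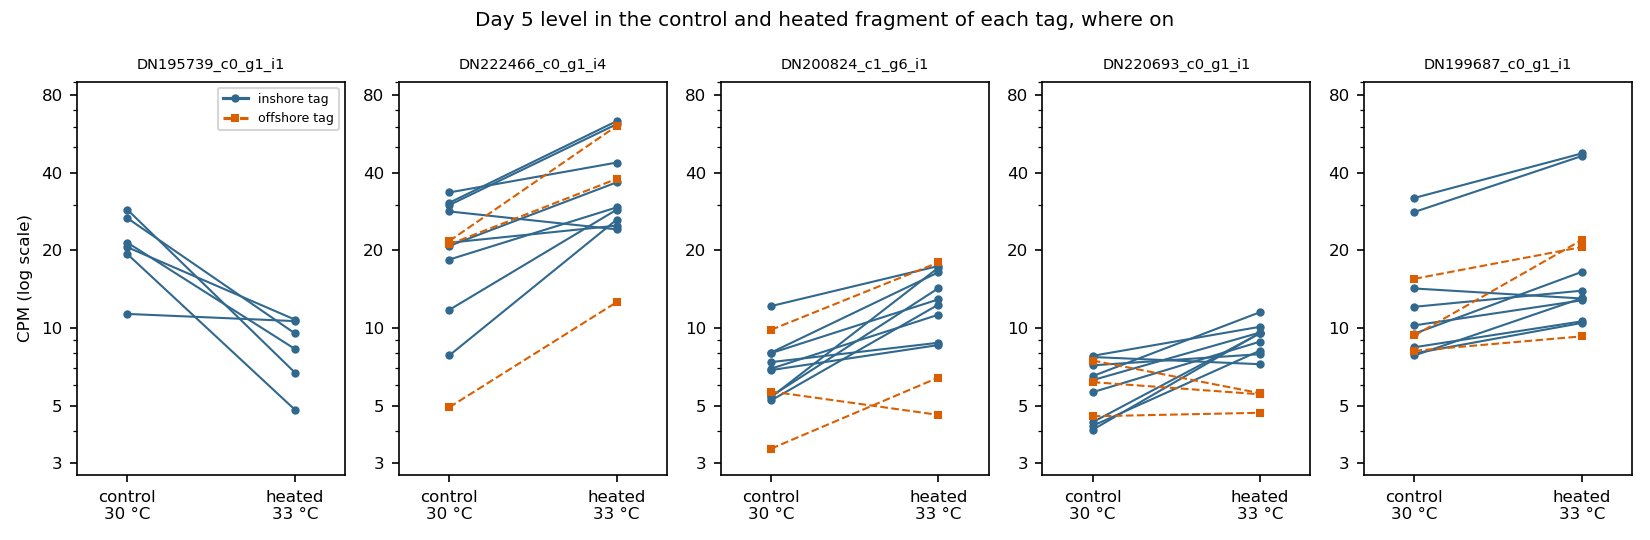
CPM at 5 days on a log axis for the 5 called transcripts, with 1 line joining the control (30 °C) and heated (33 °C) fragment of each tag in which the transcript was on. Solid lines are inshore tags and dashed lines offshore tags. DN195739_c0_g1_i1 falls in all 6 tags and the other 4 rise in 8 or 9 of the 9 inshore tags.

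DN224876_c0_g1_i2, off in B2 and C4, was higher in the heated fragment of all 12 tags at 5 days, with log2 ratios from 0.03 to 1.19. It was nevertheless not called in either habitat (inshore log2 change 0.41, SE 0.15, edgeR adjusted p = 0.0979; offshore 0.56, SE 0.27, edgeR adjusted p = 0.316).

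At 31 days, when the heated fragments stood at 32 °C, edgeR called 0 of 57 tested inshore (4 at an unadjusted p under 0.05) and 0 of 53 offshore (4 at an unadjusted p under 0.05). DESeq2 called 0 in both. In simulated data the inshore edgeR test at 31 days found 39 of 100 changes of 2-fold and 100 of 100 of 4-fold. At 5 days it found 53 of 100 changes of 2-fold. Changes of 2-fold could therefore be missed, and the offshore test was not simulated. Over all transcripts, 2.37% were called inshore and 0.0312% offshore. The inshore background itself depended on the fit: edgeR called 836 of 35219 transcripts with label terms, 154 with the tag as a block, 1416 of 37518 without the C4 control and 0 of 33295 without label In3 (5045 at an unadjusted p under 0.05). The count among the 102 stayed at 0 with the tag as a block and without the 3 libraries that stood apart. The label In2 joined B2 and B3 in this fit, which differ in 34 of the 102 states. With the tag as a block, 7 inshore and 3 offshore had an unadjusted p under 0.05.

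**Figure D4:**
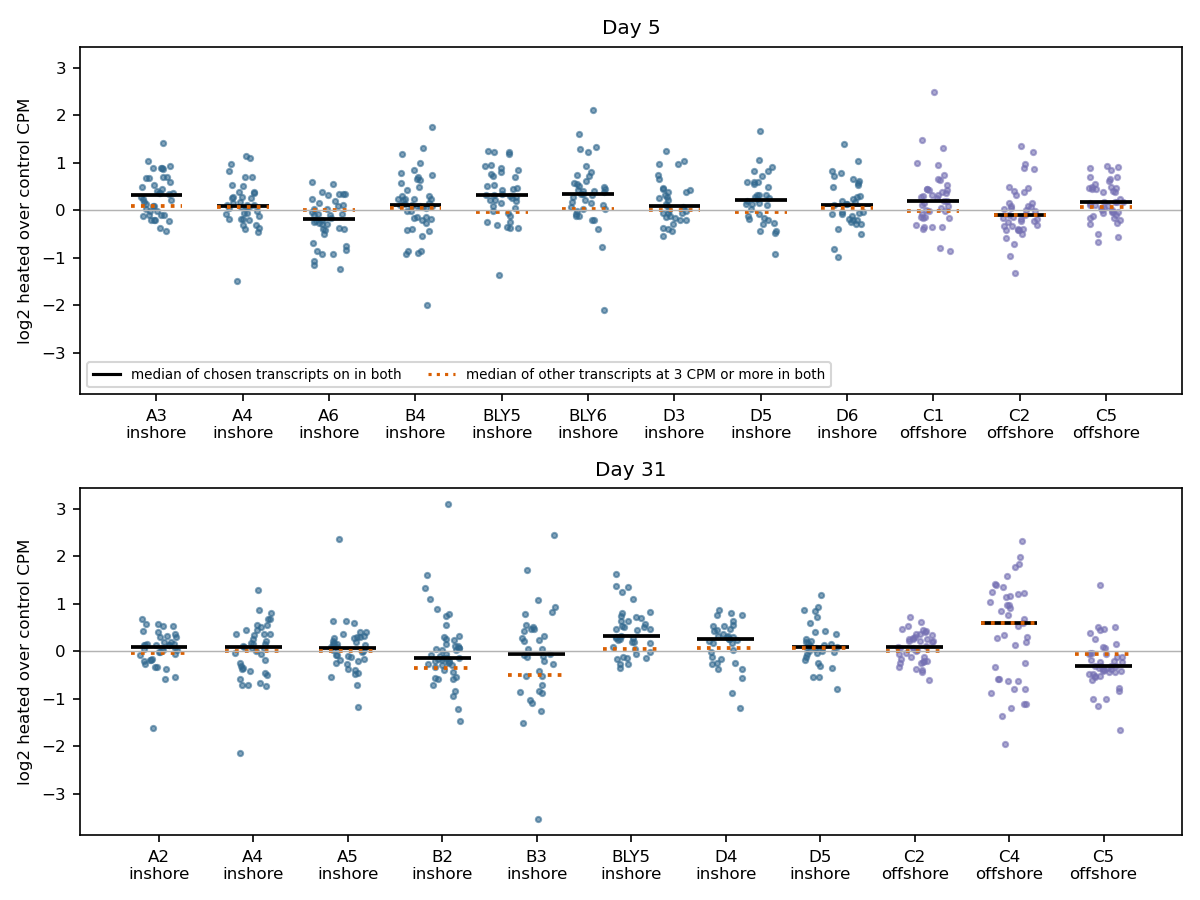
Each point is the log2 ratio of heated over control CPM of 1 of the 102 transcripts in a tag where it was on in both fragments, at 5 days (above) and 31 days (below). Black lines are medians of these transcripts and dotted lines are medians of the other transcripts at 3 CPM or more in both fragments. The black medians stay between -0.31 and 0.60 and the dotted ones between -0.50 and 0.59. At 31 days the points run from -3.53 to 2.46 in B3, from -1.46 to 3.10 in B2 and from -1.95 to 2.31 in C4. The pairs of B3, B2 and C4 each hold a library that stood apart.

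Taken tag by tag, few of the transcripts moved by 2-fold or more between the heated and control fragment. At 5 days the share ran from 0% to 15.4% over the 12 tags (median 7.32%), against 5.67% to 12.1% (median 7.45%) of other transcripts at 3 CPM or more in both fragments. At 31 days the median over 11 tags was 5% against 5.65%. The widest was C4 with 46.3%, where other transcripts had 40.4%, followed by B3 with 22.9% and 35.7%. BLY5 and B2 both had 12.8%, but other transcripts had 5.60% in BLY5 and 27.2% in B2. The pairs of C4, B3 and B2 hold the libraries that stood apart and that of BLY5 does not, and the part of those libraries in the shares was not tested.

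Between the days, the fit had a term for each tag. Between controls, 1 of 56 tested was called (1.79%), against 2.02% of all 30914 transcripts. The one called was DN224876_c0_g1_i2, higher at 31 days. Inshore controls had 3.23 to 16.2 CPM at 5 days (median 8.42, n = 9) and 3.89 to 17.3 at 31 days (median 8.42, n = 8 on), so that the groups as a whole overlapped and their medians were alike. Within the 6 tags sampled on both days it was higher at 31 days in 6 of 6, with log2 ratios from 0.02 to 1.35 (log2 change 0.63, SE 0.15, edgeR adjusted p = 0.0259). With habitat in place of the tag in the fit the log2 change was 0.05 (edgeR adjusted p = 0.985).

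Between heated fragments, edgeR called 0 of 56 (4 at an unadjusted p under 0.05), and DESeq2 called 0, against 2.24% of all transcripts by edgeR. Heated fragments differed in temperature as well as in day, and these cannot be told apart. By tag, 0% to 17.8% of the transcripts moved by 2-fold or more between the days in controls (median 2.94%, 6 tags) and 0% to 10.3% in heated fragments (median 3.44%, 6 tags). The medians of other transcripts were 6.07% and 4.98%. The highest was C5 in controls, where other transcripts also had their highest share, 12.2%.

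Level by habitat could be compared in control fragments for transcripts on in at least 2 labels of each habitat, with limma on log2(CPM + 0.5), off libraries left out and values averaged per genotype label (4 inshore against 3 offshore). At 5 days 0 of 32 were called (0 at an unadjusted p under 0.05), against 0% of 29398 transcripts in all (1741 at an unadjusted p under 0.05). At 31 days 0 of 39 were called (4 at an unadjusted p under 0.05), again against 0% of 29967 (1821 at an unadjusted p under 0.05). The average of label In2 at 31 days joined B2 and B3, which differed in 34 of the states. In simulated data this comparison found 1 of 100 changes of 2-fold and 41 of 100 of 4-fold at 5 days. Smaller habitat differences were thus not detectable here. These changes too lay only in transcripts expected in every library of the fit. In heated fragments limma called 0 of the 32 and 0 of the 39, with 2 and 3 at an unadjusted p under 0.05, while over all transcripts it called 2 of 30881 at 5 days and 0 of 31648 at 31 days (1353 at an unadjusted p under 0.05).

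Whether another isoform of the same gene takes the place of one that is off could not be seen in this table. None of the 87440 transcripts shared its g number with another, so this table held 1 transcript per assembled gene. Some i numbers lie above 1, as in DN204827_c6_g1_i8, so further isoforms of such genes may have been assembled. They are not in this table, and whether they replace a transcript that is off is unknown. The next level up is the component (c number), which can join alleles, paralogs or pieces of 1 gene. Of the 102 transcripts 65 (63.7%) shared a component with another transcript, against 45.8% of all transcripts. How alike relatives of a component are in sequence was not analysed here.

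Replacement within a component was counted in few of the 65, and the share over all transcripts was not worked out. In 6 of the 65 a relative had a mean of at least 3 CPM where the transcript was off and at least 2-fold its own mean where the transcript was on, and in 4 of them at least 4-fold. In 16 a relative had a mean of at least 3 CPM where the transcript was on and at least 2-fold its own mean where the transcript was off. In 15 a relative stood at 3 CPM or more in every library. The total of the component includes the transcript itself, whose part is higher where on by the rule. Where the transcript was off, this total had a median of 0.276 of the total where it was on. That ratio was 0.5 or more in 24 components and under 0.1 in 24, counted once for each of the 65 transcripts.

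The states were exactly opposite in 1 pair, and both of its transcripts are among the 6 with a replacement. DN222740_c0_g2_i1 was on in all 46 libraries outside tag C1, from 7.72 to 136 CPM with a median of 35.7, and had 0.199 and 0.150 CPM, 1 count each, in the C1 fragments. DN222740_c0_g4_i1 was on in C1 alone, at 65.2 CPM in the control and 61.4 in the heated fragment, and had at most 1 count elsewhere. The component held 3 transcripts, and the other one, DN222740_c0_g3_i1, did not exceed 0.527 CPM in any library. The level of either in its own tags lay in the same range. DN222740_c0_g2_i1 itself varied between sets, with a mean of 14.9 CPM ± 4.22 (SD, n = 12 libraries) in the A tags and 56.1 ± 21.4 (n = 6) in BLY5 and BLY6.

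**Figure D5:**
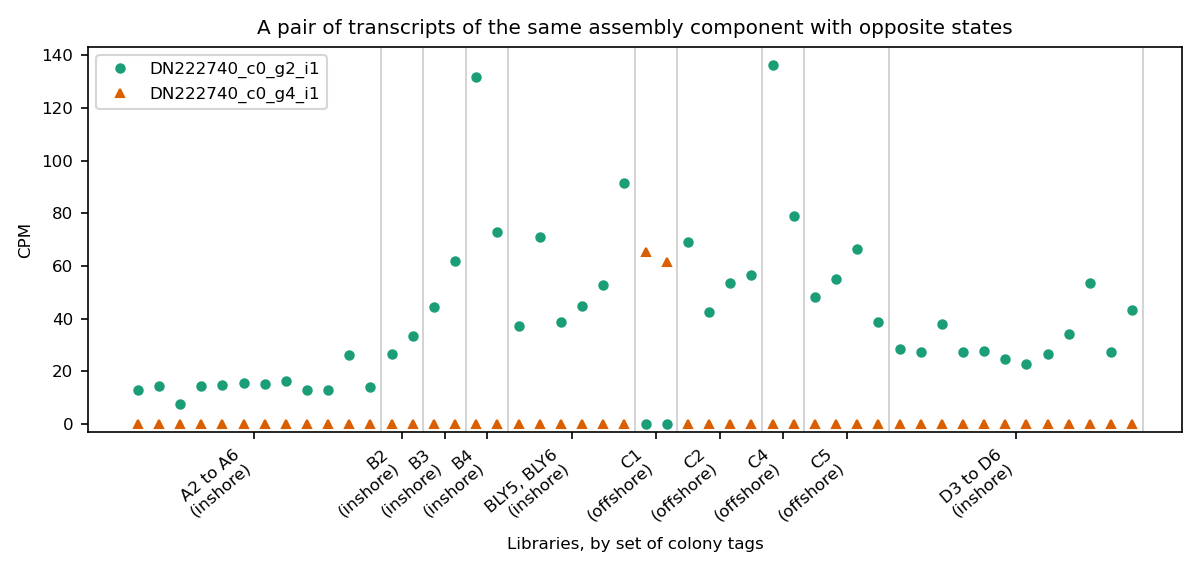
CPM of DN222740_c0_g2_i1 (g2) and DN222740_c0_g4_i1 (g4), which share a component, in the 48 libraries, grouped by set of tags. Circles (g2) lie between 7.72 and 136 CPM everywhere but in C1, and triangles (g4) lie near 0 everywhere but in C1, where they stand at 65.2 and 61.4 CPM.

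A similar exchange was seen with relatives outside the 102. DN199434_c1_g2_i1, on in B2 alone at a mean of 72.3 CPM, had the relative DN199434_c1_g1_i1 at a mean of 372 CPM (SD 227, n = 46) in the other libraries and at 1.89 CPM (SD 1.05, n = 2) in B2. DN196285_c0_g1_i1, on in B4 and C5 at a mean of 9.62 CPM, had DN196285_c0_g4_i1 at 6.89 CPM (SD 4.49, n = 42) where it was off and at 0.145 CPM (SD 0.170, n = 6) where it was on. These relatives were picked by the same rule of replacement, after the values were seen.

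A relative at least 2-fold higher where the transcript was on, at a mean of at least 3 CPM there, was counted in 16 transcripts. A replacement was counted in 6. DN206544_c3_g2_i1 and DN206544_c3_g3_i1 were both on in C4 alone. DN195625_c1_g2_i1, also on in C4 alone, had a relative, DN195625_c1_g1_i1, at 48.2 CPM in C4 and 0.157 CPM elsewhere. DN204827_c6_g1_i8, on in the A tags alone at a mean of 12.4 CPM, had DN204827_c6_g4_i1 at 16.0 CPM where on and 0.0322 CPM where off.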

How the data were processed

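The authors' deposited coral table holds estimated counts per assembled transcript for 48 libraries. Per the submitters' processing notes Trimmomatic 0.36 and RSEM were used, with no role given, and the tables are named for kallisto. Reference and aligner were not given in the sources used here. RNA was extracted with a RNAqueous kit and libraries made with a KAPA stranded mRNA kit, per the labels' protocols. Reads of near-identical transcripts may be divided among them in such estimates: 23.6% of all coral values and 12.4% of the values of the 102 transcripts were not whole, and counts were rounded for tests. A second deposited table of estimated counts (67428 to 1360639 per library) was not used. One header, BL6, matched no tag and was taken as BLY6, the only sample left for it.

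CPM used column totals. Heat was tested with edgeR 4.0.16 (R 4.3.3; TMM, filterByExpr, quasi-likelihood) on the 24 libraries of a day with genotype label terms, days on all 48 with tag terms, and habitats with limma 3.58.1. DESeq2 1.42.0 was an alternative. The SE beside an edgeR value is the log2 change divided by the root of its F statistic, and edgeR bounds some p-values by Poisson error, so p can exceed what the SE gives. Tests were tried on simulated data. Deviations of same-tag libraries from group means correlated at 0.51 to 0.75 over 12 pairs at 5 days. At 31 days the range was 0.41 to 0.71 over 11 pairs. Libraries of different tags in a set were not compared in this way, so pairing by tag beyond a shared set was not tested. Transcripts named were the 2 highest of the 4 commonest patterns, the 2 called with the smallest p per heat or day contrast and direction, pairs of opposite states, and those nearest the limits. The transcripts and lists were chosen with earlier results of these data known. No molecular identifiers are mentioned in the labels, and counts of 0 or 1 carry counting error besides.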

Additional observations from a re-analysis of the deposited data

Results flagged for a closer look

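Of 24 groups of 4 to 10 on libraries examined for the 6 called transcripts, 1 held a library far from the others, where chance gives about 1 in 20. In DN200824_c1_g6_i1 the BLY6 control of 5 days stood at 12.2 CPM, while the other 8 inshore controls lay between 5.25 and 8.04 CPM. Its heated partner was higher still, so the direction in that tag was that of the other 8.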

How the results depend on the processing

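The number of on or off transcripts depended most on the limits: 102 became 9 with limits of 5 and 0.1 CPM, 512 with limits of 1 and 0.2, 47 with at least 5 libraries of each kind and 184 with an off limit of 2 counts, which was chosen after seeing the data. It was 98 with TMM-scaled CPM (87 shared) and 104 without the 3 libraries that stood apart (77 shared). The inshore calls at 5 days were 1 to 5 when single offshore libraries or labels were left out, with 1 without In3. With the tag as a replicate block they were 4, and the block changed no other call of heat. The single offshore call at 5 days was 2 with DESeq2 and 2 with no filter, and 0 to 1 when a library or label was left out, 0 without C1 or C2. The count between control days was 0 with no replicate block, 0 with no filter, 2 with DESeq2 and 2 without the 3 libraries. Counts at 31 days, between heated fragments and between habitats were 0 under every alternative run. Replacement counted 6 by component, and 4 at 4-fold and 2 with exactly opposite states, the last 2 settings being chosen after seeing the data. The log2 change of DN195739_c0_g1_i1 stayed between -1.85 and -1.24 and it was called in all 18 alternatives. Those that left out an offshore library, an offshore label or In3 removed only libraries in which it was off. Such settings put its call to little trial. The causes of these moves were not tested. A single count sets the limit for off, so states of transcripts near 3 CPM rest on 15 counts or little more.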
